A study of Macaca mulatta with 7 samples.

Results

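The genes described here are 26 listed genes of cholesterol and fatty acid synthesis, chosen by symbol, with their UMI counts in single nuclei of the rhesus monkey spinal cord. Of these 26, 23 were found by symbol among the 28966 symbols or identifiers measured. FDPS was not found by symbol and is given separately under the identifier ENSMMUG00000023144. CYP51A1 and EBP were not found and are not analysed here. The study compared the cord below a complete thoracic injury with the intact cord, using adult monkeys that were all female per the study. There were 7 libraries, 1 for each group. The intact cervical, thoracic and lumbar libraries came from untreated tissue of an animal 5 years old. The injured lumbar libraries were taken at 7 days (7 dpi, age 7 years), 14 days (14 dpi, age 7 years), 30 days (30 dpi, age 6 years) and 6 months (6 mpi, age 6 years) after the injury. The lumbar tissue lay distal to the lesion, and no injured cervical or thoracic tissue is among these libraries. With 1 library per group, differences between animals, ages and time points cannot be told apart from the injury, no p-value is given, and each interval covers counting error only.

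Cholesterol is built from acetyl-CoA through mevalonate, squalene and lanosterol. In the central nervous system it is made locally, because the blood-brain barrier keeps out lipoprotein cholesterol, and most of it sits in the myelin made by oligodendrocytes. The transcription factor encoded by SREBF2 drives most of the enzyme genes when membrane sterol is low. SCAP escorts it out of the endoplasmic reticulum and INSIG1 retains it there. SREBF1 encodes the related factor best known for fatty acid genes, and its own gene is a known target of the oxysterol-sensing liver X receptors. Microglia, the macrophages of the cord, take up myelin debris and export its cholesterol through transporters such as ABCA1 and ABCG1.

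After filtering, 63730 of 69332 barcodes were kept, with 5637 to 11002 nuclei per library and median depths of 3191 to 7355 UMIs. The 6 mpi library stood apart in having the fewest UMIs per nucleus and the highest mitochondrial share, 0.0289% against 0.00455% to 0.0128% in the other libraries. Any pair of libraries shared 12 to 36 barcode sequences. Nuclei were clustered without the listed genes and named from markers as oligodendrocyte-like (2065 to 4576 nuclei per library), OPC-like (oligodendrocyte precursors, 225 to 1494), astrocyte-like (98 to 1738), microglia-like (1653 to 4606) and neuron-like (789 to 2821). The level of a gene is the share of its class's UMIs in a library that it took, in counts-per-million (CPM). The markers of oligodendrocytes summed to 12560 to 13436 CPM in oligodendrocyte-like nuclei of the intact libraries. In the injured ones they summed to 12870, 12395, 11936 and 11786 in order of time. The markers of microglia summed to 4940.2 to 5369.6 CPM in microglia-like nuclei of the intact libraries and to 4899, 4613, 3668 and 2864 in the injured ones in order of time. These levels are from 3-prime UMIs and are compared between libraries and classes but not between genes.

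A gene was counted as measured in a class where its mean level over the 7 libraries was at least 5 CPM. An injured library was called higher or lower for a gene where the level lay outside the range of the 3 intact libraries, differed at least 1.5-fold from intact lumbar cord, and had a 95% interval of that ratio that left out 1. For intact cervical and thoracic cord the range condition was not used. The intact range covers segments of a single animal and holds no spread between animals. FASN, the fatty acid synthase, stayed below the minimum in every class, at 0 to 2.68 CPM, so none of its differences is described. Between 20 and 22 of the 23 genes were measured in each class.

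In intact lumbar cord, 8 of the 23 genes had their highest level in oligodendrocyte-like nuclei, 8 in microglia-like, 3 in astrocyte-like, 3 in neuron-like and 1 in OPC-like nuclei. Over the 13685 genes measured in at least 1 class and ranked in lumbar cord these shares were 16.1%, 32.8%, 18.2%, 24.8% and 8.08%. The counts differed by segment. Oligodendrocyte-like nuclei led for 12 genes and microglia-like for 5 in cervical cord, and for 10 and 6 in thoracic cord. Shares over all genes were not computed for those segments, so nothing is read from this difference about the list. FASN, too low to be counted as measured, was among the microglial 8 in lumbar cord and among the oligodendrocyte-like genes in the other segments. In lumbar cord those highest in oligodendrocyte-like nuclei included 4 of the 5 mevalonate genes found by symbol. HMGCS1, which makes the HMG-CoA of the pathway, measured 169 CPM there in intact lumbar cord, against 84.9 in microglia-like, 48.0 in neuron-like, 35.4 in OPC-like and 19.3 in astrocyte-like nuclei. The oligodendrocyte-like level was 1.99 to 3.63 times that of the next class in the 3 intact libraries. The squalene and later steps were divided: FDFT1 (squalene synthase), SQLE (squalene epoxidase) and SC5D (a late sterol desaturase) were highest in microglia-like nuclei in each of the 3 intact libraries, while LSS (lanosterol synthase) was highest in oligodendrocyte-like nuclei.

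SQLE measured 85.2 CPM in microglia-like and 43.3 in oligodendrocyte-like nuclei of intact lumbar cord, and 9.16 in astrocyte-like nuclei. SCD, the stearoyl-CoA desaturase that makes monounsaturated fatty acids, had the largest ratio between its highest and next class in intact lumbar cord. It measured 68.5 CPM in oligodendrocyte-like nuclei of intact lumbar cord, 5.71 times the next class, but this ratio was 2.69 in intact thoracic cord. No gene of the list reached 3-fold over every other class in all 3 intact libraries. ACACA (acetyl-CoA carboxylase) and ELOVL6 (which elongates palmitate) were highest in neuron-like nuclei in the 3 intact libraries, as was SCAP. SREBF1 was highest in astrocyte-like nuclei in all 7 libraries.

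**Figure D1:**
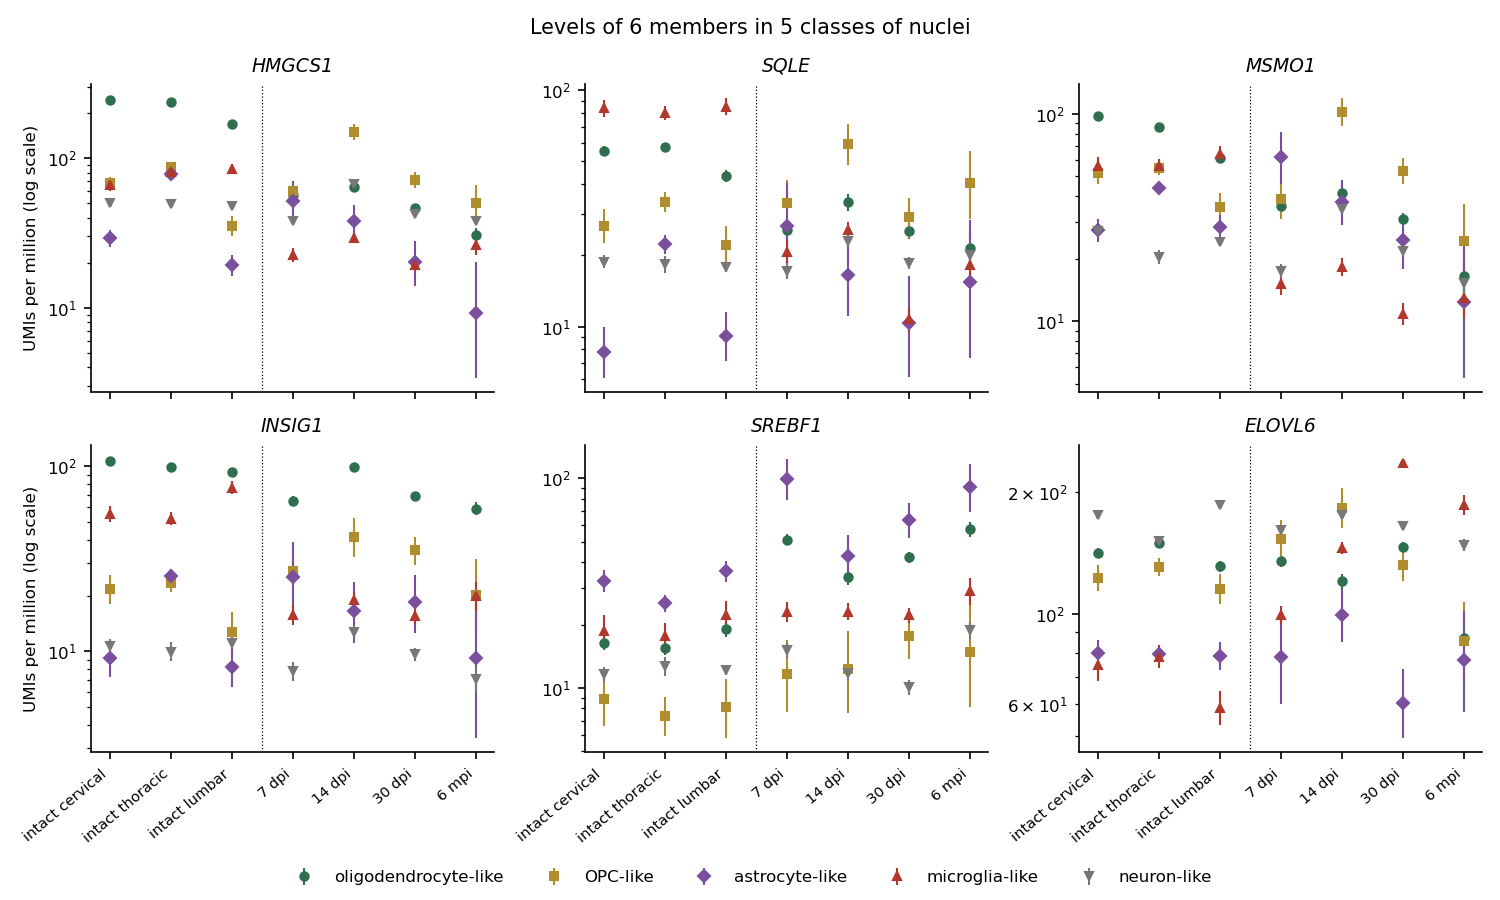
Levels of HMGCS1, SQLE, MSMO1, INSIG1, SREBF1 and ELOVL6 in CPM (log scale) in 5 classes of nuclei, by library, with exact Poisson 95% intervals; the dotted line divides intact from injured libraries. HMGCS1 and SQLE in microglia-like nuclei sit at 66.6 to 85.2 in the 3 intact libraries and at 10.7 to 29.3 in the 4 injured ones.

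The letters before several of these genes are shown as a description, and their part in the levels was not tested. RefSeq start sites on Mmul_10 were found for 24 of the 26 listed genes, including FDPS and EBP, and the 250 bases before each start were searched on both strands. The letters searched were TCACNCCAC, a form of the sterol regulatory element that the SREBF factors bind, and CCAAT, the box of their partner NF-Y. CCAAT was present before 17 of the 24 genes (70.8%), against 30.9% of 20769 protein-coding promoters of the same length. TCACNCCAC was present before 2 of the 24, HMGCS1 and FASN, against 1.52% of all promoters. Only HMGCS1 held both, and there the matches did not overlap. Below are 6 of these stretches, 5′ to 3′ on the strand of the gene, with matches on either strand in capitals. They belong to genes called lower after injury in both oligodendrocyte-like and microglia-like nuclei. A match is only a match of letters, and its absence says nothing of the factor.
HMGCS1, chr6:43321488-43321737, minus strand: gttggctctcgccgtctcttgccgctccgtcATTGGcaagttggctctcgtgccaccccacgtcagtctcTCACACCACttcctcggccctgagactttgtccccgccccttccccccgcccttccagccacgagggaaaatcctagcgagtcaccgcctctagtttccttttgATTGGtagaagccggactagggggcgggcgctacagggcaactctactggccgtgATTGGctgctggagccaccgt
MVD, chr20:75677891-75678140, minus strand: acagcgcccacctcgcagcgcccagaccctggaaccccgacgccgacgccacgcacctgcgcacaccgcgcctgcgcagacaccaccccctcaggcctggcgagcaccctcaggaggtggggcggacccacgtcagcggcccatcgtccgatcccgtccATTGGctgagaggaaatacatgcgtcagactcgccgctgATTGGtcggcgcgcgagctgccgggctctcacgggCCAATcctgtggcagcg
IDI1, chr9:1773388-1773637, minus strand: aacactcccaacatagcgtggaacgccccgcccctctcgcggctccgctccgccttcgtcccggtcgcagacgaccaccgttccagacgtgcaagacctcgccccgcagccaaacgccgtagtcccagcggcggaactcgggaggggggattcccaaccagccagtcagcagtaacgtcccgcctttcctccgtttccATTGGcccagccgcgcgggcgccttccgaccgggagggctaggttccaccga
MSMO1, chr5:162734242-162734491, plus strand: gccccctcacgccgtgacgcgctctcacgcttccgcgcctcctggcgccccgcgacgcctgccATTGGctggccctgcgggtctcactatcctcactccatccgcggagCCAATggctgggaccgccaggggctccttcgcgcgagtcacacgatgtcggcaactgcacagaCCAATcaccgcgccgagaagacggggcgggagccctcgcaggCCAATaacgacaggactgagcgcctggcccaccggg
SC5D, chr14:114342072-114342321, plus strand: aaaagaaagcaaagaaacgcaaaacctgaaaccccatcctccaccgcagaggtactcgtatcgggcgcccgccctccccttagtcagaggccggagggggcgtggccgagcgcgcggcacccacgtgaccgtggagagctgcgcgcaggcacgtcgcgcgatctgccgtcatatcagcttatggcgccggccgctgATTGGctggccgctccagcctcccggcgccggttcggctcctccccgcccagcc
STARD4, chr6:108926694-108926943, minus strand: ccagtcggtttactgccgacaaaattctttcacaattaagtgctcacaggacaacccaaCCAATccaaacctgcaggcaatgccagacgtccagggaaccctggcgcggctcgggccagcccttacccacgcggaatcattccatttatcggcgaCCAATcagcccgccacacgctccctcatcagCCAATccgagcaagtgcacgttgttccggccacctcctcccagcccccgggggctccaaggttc

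Oligodendrocyte-like nuclei of the injured lumbar cord had lower levels of the cholesterol enzymes at each of the 4 time points. The 14 enzymes found by symbol summed to 977, 969 and 762 CPM in intact cervical, thoracic and lumbar cord. In the injured libraries, from the earliest to the latest, the sum was 409.8, 420.1, 350.5 and 244, which is 0.538, 0.551, 0.460 and 0.320 times intact lumbar cord. The injured and intact sums did not overlap, and the 6 mpi library was lowest. The upper bounds of the 4 ratios lay between 0.334 and 0.566.

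Of the 22 genes measured in this class, 12 were called lower in at least 3 of the 4 injured libraries, against 2.73% of all 10095 measured genes, and 1 (SREBF1) was called higher, against 5.34%. The median log2 ratio of the 22 genes to intact lumbar cord was -0.53, -0.56, -0.67 and -1.13 at 7 dpi, 14 dpi, 30 dpi and 6 mpi, while that of all measured genes lay between -0.02 and 0.12. In order of time, the injured libraries had 10, 10, 12 and 17 of the 22 genes called lower, where 7.35%, 7.38%, 6.41% and 6.1% of all genes were. They had 1, 1, 1 and 2 called higher, where 13.5%, 6.95%, 7.96% and 17.1% of all genes were. Levels of 15 genes were below the whole intact range in all 4 injured libraries (10.7% of all genes) and levels of 3, PMVK, SREBF1 and SCAP, above it (14.1%), of which PMVK passed the filter on low levels only through the injured libraries. Intact cervical cord had 1 gene, MSMO1, called higher than lumbar cord (1.29%) and none lower (1.73%), and intact thoracic cord had none in either direction (1.5% and 3.46%). When 1 injured library was left out and a call was asked of the other 3, the number called lower was 7 without 7 dpi, 8 without 14 dpi, 6 without 30 dpi and 6 without 6 mpi. At a fold of at least 2 it was 4.

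**Figure D2:**
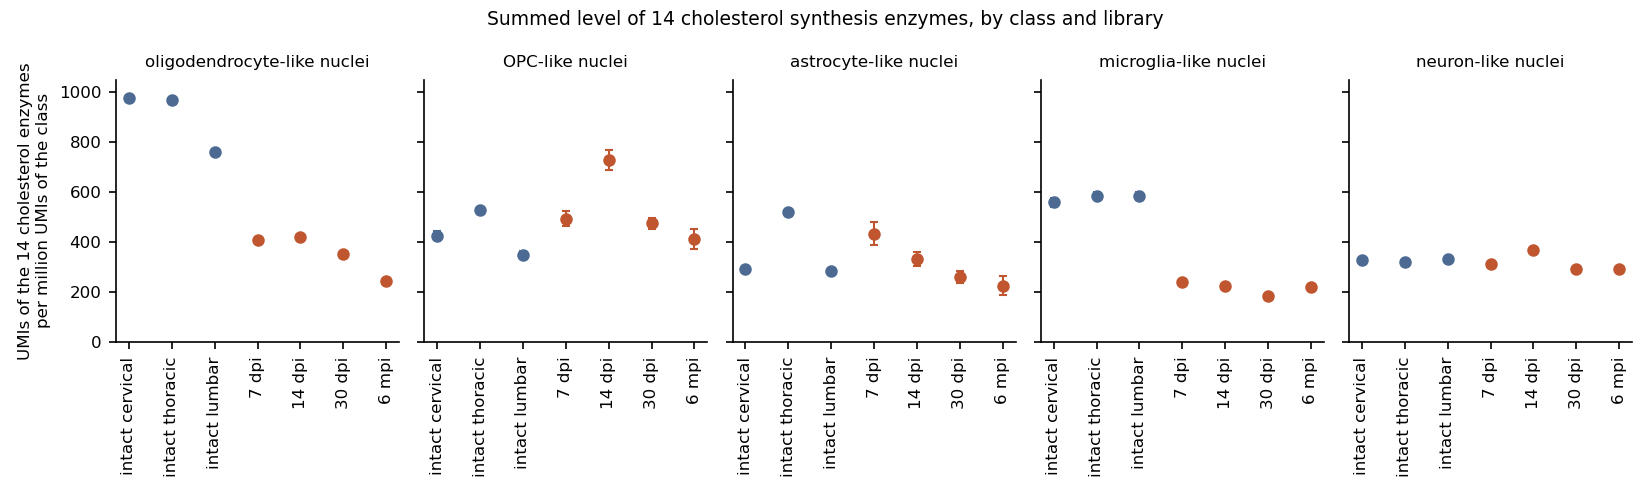
Summed level of the 14 cholesterol synthesis enzymes in CPM (UMIs scaled to the total of each class), by library, with exact Poisson 95% intervals (blue intact, orange injured). Injured libraries lie below the intact ones in oligodendrocyte-like nuclei (244 to 420.1 against 762 to 977) and in microglia-like nuclei (184 to 239 against 559 to 586), and overlap them in the other 3 classes.

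In the mevalonate steps the lowest ratio belonged to HMGCS1. This gene measured 246, 239 and 169 CPM in oligodendrocyte-like nuclei of intact cervical, thoracic and lumbar cord, and 57.1, 64.0, 46.6 and 30.7 at 7 dpi, 14 dpi, 30 dpi and 6 mpi. All 4 injured values were under the lowest intact one, and the ratios to intact lumbar cord ran from 0.379 (0.354 to 0.406) at 14 dpi to 0.182 (0.162 to 0.204) at 6 mpi. IDI1, the isopentenyl diphosphate isomerase, measured 114, 116 and 86.9 in the intact libraries and 49.8, 59.1, 31.1 and 16.8 in the injured ones. Its 14 dpi level, 0.680 times intact lumbar cord, was below the intact range but missed the fold condition. MVD (mevalonate diphosphate decarboxylase) measured 77.9, 67.1 and 60.3 in the intact and 34.0, 28.6, 21.6 and 18.8 in the injured libraries. MVK (mevalonate kinase) measured 22.2, 24.8 and 19.7 in the intact and 12.6, 10.1, 12.6 and 7.83 in the injured libraries. For both genes every injured level was below every intact level, and all 4 libraries were called. PMVK, the kinase that follows MVK, was the exception among these steps, at 4.51 to 5.14 in the intact and 5.48 to 7.53 in the injured libraries (called higher at 6 mpi). Its intact levels averaged under the minimum of 5 CPM, so it counted as measured only through the injured libraries, and neither its call nor its place above the intact range is support for a change. FDPS (farnesyl diphosphate synthase), found through its identifier, measured 44.6, 44.7 and 37.9 in the intact and 27.8, 17.9, 15.1 and 12.2 in the injured libraries.

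The squalene steps followed with less uniform time courses. FDFT1 measured 126.5, 132 and 102 CPM in the intact and 42.0, 46.1, 78.8 and 32.8 in the injured libraries, so that its 30 dpi level stood nearer to the intact range (0.775 times intact lumbar cord, 0.732 to 0.820). SQLE measured 55.5, 57.2 and 43.3 in the intact and 25.6, 33.5, 25.2 and 21.5 in the injured libraries. LSS measured 69.8, 68.5 and 61.5 in the intact and 47.7, 31.3, 29.3 and 22.8 in the injured libraries. Each of these genes had all 4 injured levels below all 3 intact ones, and 3 of 4 libraries passed the fold condition.

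Past lanosterol, MSMO1 (methylsterol monooxygenase), NSDHL (a sterol dehydrogenase), HSD17B7 (a sterol ketoreductase) and SC5D were called lower in at least 3 libraries. SC5D measured 45.2, 45.0 and 37.6 CPM in the intact and 12.9, 16.9, 15.7 and 13.6 in the injured libraries. MSMO1 measured 97.0, 86.2 and 61.1 in the intact and 35.8, 41.5, 31.0 and 16.4 in the injured libraries. NSDHL measured 22.1, 24.2 and 18.8 in the intact and 12.3, 9.40, 11.6 and 10.9 in the injured libraries. HSD17B7 measured 23.8, 22.9 and 22.1 in the intact and 13.9, 14.3, 11.4 and 15.4 in the injured libraries. In none of these 4 genes did the intact and injured levels overlap. TM7SF2 (a sterol reductase) measured 62.4, 72.3 and 68.3 in the intact libraries, 53.2 and 56.4 at 7 and 14 dpi, and 22.0 and 26.7 at 30 dpi and 6 mpi, where it was called. DHCR7, the last reductase, overlapped the intact range of 7.41 to 9.46 at 30 dpi (8.17) and was called at 14 dpi (3.58) and 6 mpi (2.54).

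**Figure D3:**
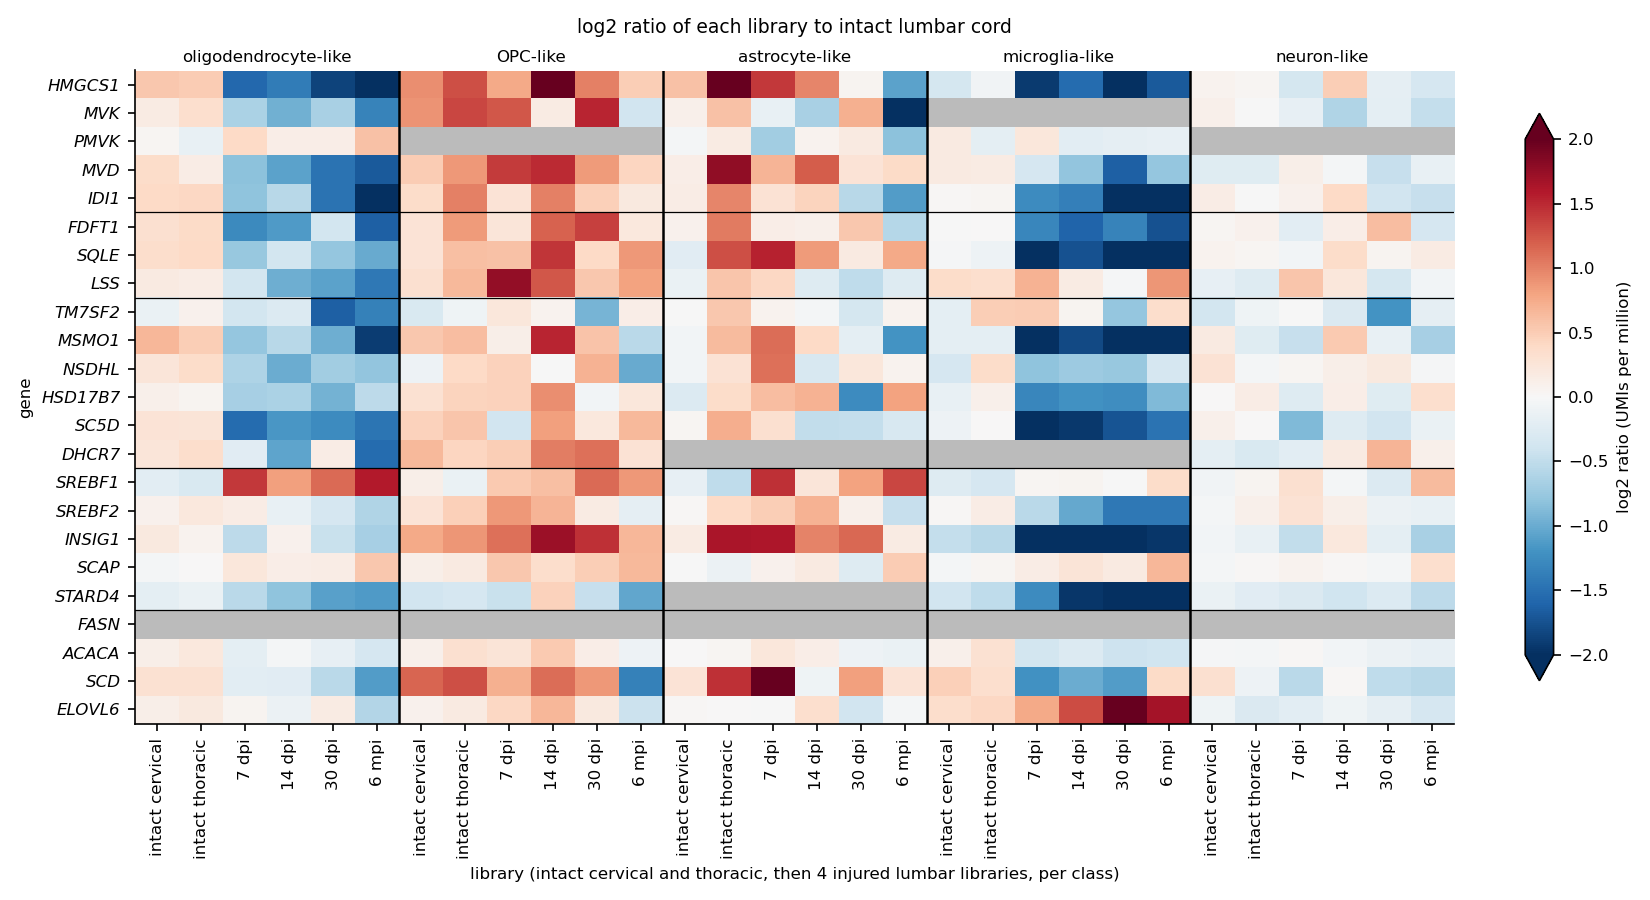
log2 ratio of each library to intact lumbar cord (colour, limited to -2 and 2) for the 23 genes (down, ordered by role, divided by lines) in 5 classes of nuclei (across), with 6 libraries per class; grey marks a gene below 5 CPM in that class. Blue fills the injured columns of most cholesterol genes in oligodendrocyte-like and microglia-like nuclei, SREBF1 in oligodendrocyte-like and ELOVL6 in microglia-like nuclei are red, and intact thoracic cord is red in OPC-like and astrocyte-like nuclei.

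Among the regulators, SREBF1 went the other way in oligodendrocyte-like nuclei. It measured 16.5, 15.5 and 19.1 CPM in the intact libraries and 51.1, 33.7, 42.0 and 57.2 at 7 dpi, 14 dpi, 30 dpi and 6 mpi. Every injured level was above every intact level, with ratios to intact lumbar cord of 1.76 (1.56 to 1.99) to 2.99 (2.65 to 3.38). SREBF1 is a single gene, and higher calls were no more frequent in the list than over all genes. Nothing is read from it about the list. SREBF2 measured 228 to 265 in the intact and 252, 206, 179.8 and 150.3 in the injured libraries, below the intact range from 14 dpi on and called only at 6 mpi. INSIG1 measured 93.6 to 107 in the intact and 65.2, 99.3, 68.9 and 59.1 in the injured libraries, overlapping at 14 dpi. SCAP measured 49.5 to 51.6 and 56.0 to 74.3, without overlap but also without a call. STARD4, which carries sterol between membranes, was called lower at 14 dpi, 30 dpi and 6 mpi. It measured 8.69, 9.02 and 9.92 in the intact and 6.86, 5.70, 4.69 and 4.50 in the injured libraries.

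The oligodendrocyte-like nuclei of intact and injured cord lay mostly in different clusters, which were made without batch correction between libraries. In the intact libraries cluster 2 held 38.0% to 46.5% of them, cluster 7 held 23.8% to 27.6% and cluster 9 held 18.1% to 29.4%. In the injured libraries cluster 0 held 50.3% to 65.7% and cluster 8 held 17.9% to 32.4%, against at most 1.42% and 1.16% in the intact libraries. Cluster 9 held at most 4.21% of the class in the injured libraries. These clusters differed among themselves in the summed enzyme level. Cluster 9, led by RAI14, THSD7B and GSN, held 1203 to 1564 CPM in the intact libraries, cluster 7 held 723 to 826, and cluster 2, led by ARAP2, QDPR and OPALIN, held 364 to 403. In the injured libraries cluster 8, which shared GSN and THSD7A with cluster 9 among its leading genes, held 264 to 566, and cluster 0, which shared QDPR, OPALIN, CLMN and HHIP with cluster 2, held 217 to 269. Each of these injured clusters was below the intact cluster with which it shared leading genes.

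Where a cluster held at least 50 nuclei of both intact lumbar and an injured library, its level was lower in the injured library. In cluster 0 the sum was 381 CPM (305.4 to 469) in the 54 nuclei of intact lumbar cord and 217 to 269 in the 4 injured libraries. Cluster 14 held 659 in intact lumbar cord and 422, 346 and 245 at 14 dpi, 30 dpi and 6 mpi, but it was left unnamed by the stricter naming rule, with NEFH and NEFL, neurofilament genes of neurons, among its leading genes there and a median UMI count 0.41 times that of its libraries. At 6 mpi, cluster 2 held 223 against 364, cluster 7 held 238 against 723, and cluster 9 held 330.0 against 1203. In cluster 2 the 14 dpi level of 317 (263 to 378) overlapped the interval of intact lumbar cord (352 to 377). Clusters 7 and 9 held enough injured nuclei only at 6 mpi, the library with the fewest UMIs per nucleus. A change of level within clusters, a change in the shares of the clusters, and a difference between libraries or animals cannot be told apart here. The summed microglia markers in oligodendrocyte-like nuclei were 24.4 to 52.0 CPM in the intact and 43.0 to 213 in the injured libraries, highest at 6 mpi. Astrocyte markers there were 87.5 to 123 in the intact and 106 to 233 in the injured libraries, highest at 7 dpi. The part of these sums in the result was not tested.

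**Figure D4:**
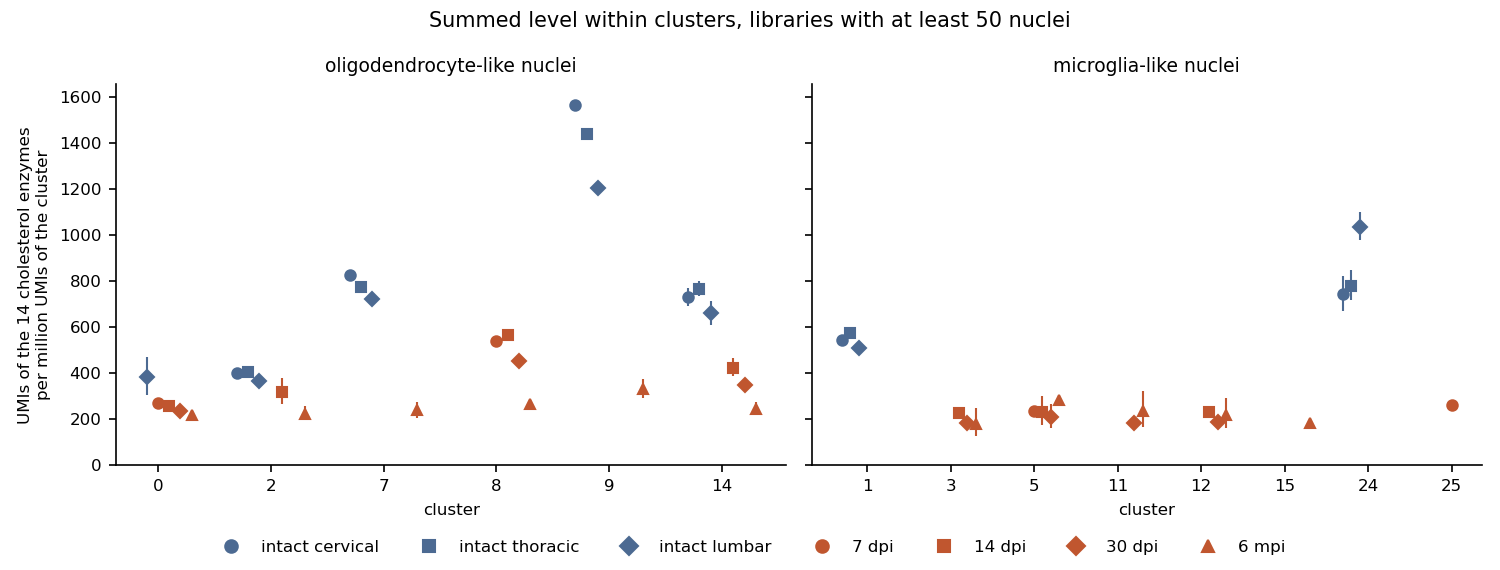
Summed UMIs of the 14 cholesterol enzymes in CPM within each cluster of oligodendrocyte-like (left) and microglia-like nuclei (right), for libraries with at least 50 nuclei in the cluster, with exact Poisson 95% intervals (blue intact, orange injured; the symbol gives the library). In clusters 0, 2, 7, 9 and 14, which hold both, injured points lie below intact ones, and no microglia-like cluster holds both.

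Microglia-like nuclei of the injured lumbar cord were also lower in the cholesterol enzymes, and the difference was there by 7 dpi. The 14 enzymes summed to 559, 586 and 585 CPM in intact cervical, thoracic and lumbar cord and to 239, 223, 184 and 221 at 7 dpi, 14 dpi, 30 dpi and 6 mpi. The ratios to intact lumbar cord were 0.409, 0.382, 0.314 and 0.377, with upper bounds of 0.327 to 0.428. The highest injured level was less than the lowest intact level by more than the width of either interval.

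Of 20 genes measured in this class, 13 were called lower in at least 3 of the 4 injured libraries, against 6.62% of 10368 measured genes, and 1 (ELOVL6) was called higher, against 9.87%. The median log2 ratio of the 20 genes was -1.01, -1.01, -1.29 and -0.83 at 7 dpi, 14 dpi, 30 dpi and 6 mpi, and that of all measured genes lay between -0.08 and 0.20. In order of time, the injured libraries had 11, 13, 14 and 11 of the 20 called lower (12.8%, 12.9%, 13.6% and 9.74% of all genes) and 2, 1, 1 and 3 called higher (17.4%, 11.5%, 13.8% and 26.5%). Levels of 12 were below the whole intact range in all 4 injured libraries (12.4% of all genes) and levels of 2, SCAP and ELOVL6, above it (15%). No gene of the list was called between intact segments, where 4.68% and 1.64% of all genes were called higher and lower in cervical cord and 3.19% and 5.18% in thoracic cord. Without 1 injured library, asking a call of the other 3, the number called lower was 11 without 7 dpi, 9 without 14 dpi, 9 without 30 dpi and 11 without 6 mpi. The same libraries gave the oligodendrocyte-like nuclei, so the 2 classes are not independent.

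Among the enzymes in microglia-like nuclei the lowest single ratio was that of SQLE at 30 dpi, and at the other times SQLE was not the lowest. SQLE measured 83.6, 79.8 and 85.2 CPM in the intact libraries and 20.7, 25.5, 10.7 and 18.2 in the injured ones, down to 0.126 (0.109 to 0.145) times intact lumbar cord at 30 dpi. MSMO1 measured 55.9, 56.0 and 63.9 in the intact and 15.2, 18.3, 10.8 and 13.0 in the injured libraries. SC5D measured 49.0, 52.9 and 52.7 in the intact and 11.6, 13.9, 15.9 and 18.9 in the injured libraries. For these 3 genes the ratios to intact lumbar cord lay between 0.126 and 0.359, and none of the injured levels reached the intact range.

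HMGCS1 measured 66.6, 80.9 and 84.9 CPM in the intact and 22.6, 29.3, 19.4 and 26.4 in the injured libraries. IDI1 measured 45.6, 45.8 and 44.8 in the intact and 18.8, 17.4, 10.2 and 10.996 in the injured libraries. FDFT1 was flat across the intact segments at 149.5, 151 and 151, and measured 61.3, 49.96, 60.1 and 45.4 in the injured libraries. All 3 genes were called lower at each time point. MVD measured 33.6, 33.4 and 29.8 in the intact and 23.5, 17.1, 9.58 and 17.4 in the injured libraries, and missed the fold condition at 7 dpi. HSD17B7 measured 22.0, 26.1 and 24.4 in the intact and 9.86, 10.5, 10.3 and 13.3 in the injured libraries, and was called at all 4 time points.

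NSDHL measured 8.82, 14.5 and 11.2 CPM in the intact and 6.40, 6.79, 6.62 and 8.86 in the injured libraries, overlapping at 6 mpi. FDPS, by identifier, measured 50.1, 55.0 and 56.8 in the intact and 41.8, 18.02, 15.2 and 21.5 in the injured libraries. LSS did not follow the other enzymes in microglia-like nuclei. It measured 18.8, 18.2 and 14.5 in the intact and 23.4, 16.3, 14.2 and 26.7 in the injured libraries, and was called higher at 7 dpi and 6 mpi. TM7SF2 (7.00 to 11.3 in the intact) was called lower only at 30 dpi (4.73), PMVK stayed at 5.78 to 7.81 in all 7 libraries, and MVK and DHCR7 were below the minimum.

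The genes of sterol sensing were also lower in microglia-like nuclei of the injured cord, apart from SREBF1 and SCAP. INSIG1 measured 55.2, 52.0 and 76.7 CPM in the intact and 15.7, 18.9, 15.5 and 19.9 in the injured libraries, between 0.202 and 0.259 times intact lumbar cord. SREBF2 measured 259, 282 and 254 in the intact libraries and 176, 124, 94.4 and 94.2 in the injured ones. The SREBF2 levels were below the intact range at each time point and were called from 14 dpi on. STARD4 measured 16.5, 15.2 and 21.6 in the intact and 9.03, 5.59, 5.32 and 4.12 in the injured libraries, without overlap. SREBF1 showed no call in this class, at 17.8 to 22.4 in the intact and 22.2 to 29.0 in the injured libraries. SCAP was called higher only at 6 mpi (77.7, against 47.6 to 50.5 in the intact libraries).

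Intact and injured microglia-like nuclei shared no cluster with at least 50 nuclei of both. Cluster 1, led by FKBP5, INPP5D and SCML4, held 84.5% to 93.3% of them in the intact libraries, with a summed enzyme level of 507 to 574 CPM. Cluster 24, led by SRGN, CD163 and CD83, held 5.63% to 14.2% there, with 742 to 1036. The injured nuclei lay in cluster 5 at 7 dpi (84.8%), cluster 3 at 14 dpi (88.0%), clusters 11 and 12 at 30 dpi (55.5% and 32.9%) and clusters 15 and 5 at 6 mpi (51.3% and 39.7%). Their sums were 178.7 to 282 CPM, including 262 in cluster 25 of dividing nuclei (led by DIAPH3, SMC4 and TOP2A) at 7 dpi. The clusters were made without batch correction between libraries. Cluster 3 drew 90.9% of its nuclei from 14 dpi, cluster 11 drew 94.5% from 30 dpi and cluster 15 drew 97.2% from 6 mpi. A change of level within a microglial state, a replacement of one state by another, and a difference between libraries or animals cannot be told apart here. The summed oligodendrocyte markers in microglia-like nuclei were 999.6 to 1302 CPM in the intact libraries and 1128, 993, 1024 and 1660 in the injured ones. They lay above the intact range at 6 mpi and slightly below it at 14 dpi. OPC markers were 240 to 291 in the intact libraries and 256, 250, 234 and 306 in the injured ones. Other marker sums in this class also left the intact range in some injured libraries. Endothelial markers were 814 to 862 in the intact libraries, 1526 at 7 dpi and 832 to 839 later. Schwann cell markers were 30.2 to 80.5 in the intact libraries and 13.8, 144, 164 and 80.5 in the injured ones. These sums include genes that led microglia-like clusters. VWF, an endothelial marker, was among the leading genes of cluster 5. EGR2, a Schwann cell marker, was among those of cluster 11 under the stricter naming rule. Astrocyte markers were 113 to 152 in the intact libraries and 202, 127, 87.1 and 211 in the injured ones. The microglia markers themselves were 4940 to 5370 in the intact libraries and 4899, 4613, 3668 and 2864 in the injured ones. The part of these sums in the results was not tested.

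The 4 fatty acid genes, summed, measured 371 to 434 CPM in oligodendrocyte-like nuclei of the intact libraries and 344, 345, 346 and 254 in the injured ones, and in microglia-like nuclei 159.6 to 204 against 173, 224, 308 and 269. The microglial sum overlapped at 7 dpi and lay above the intact range at the later times, where ELOVL6 made up most of it. ELOVL6 in microglia-like nuclei measured 74.6, 78.4 and 58.7 CPM in the intact libraries and 99.4, 145, 236 and 186 at 7 dpi, 14 dpi, 30 dpi and 6 mpi. All 4 injured levels were above all intact ones, with ratios to intact lumbar cord of 1.69 (1.52 to 1.89) to 4.02 (3.64 to 4.44). ELOVL6 too is a single gene, and higher calls were no more frequent in the list than over all genes in this class. SCD in the same nuclei measured 16.7, 15.1 and 12.01 in the intact libraries and 5.18, 6.02, 5.56 and 15.6 in the injured ones, so it was called lower at the first 3 time points and lay within the intact range at 6 mpi. In oligodendrocyte-like nuclei SCD measured 84.2, 84.6 and 68.5 in the intact and 58.9, 58.7, 47.2 and 31.6 in the injured libraries, and only 6 mpi passed the fold condition. ELOVL6 there measured 131 to 149 in the intact libraries and 87.3 to 146 in the injured ones, with a call (lower) at 6 mpi. ACACA was below the intact range at every time point in both classes, at 134 to 165 against 170.0 to 198 in oligodendrocyte-like nuclei and at 65.8 to 72.3 against 87.5 to 108 in microglia-like nuclei, with no call.

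OPC-like nuclei had no gene of the list called lower in at least 3 injured libraries (all genes 2.14%), and 2 of 21, LSS and INSIG1, called higher (3.56%). LSS measured 21.4, 26.6 and 17.1 CPM in the intact and 57.7, 40.5, 24.7 and 29.7 in the injured libraries, and INSIG1 measured 21.6, 23.5 and 12.7 in the intact and 27.1, 41.6, 35.1 and 20.2 in the injured libraries. Both overlapped the intact range in 1 library, LSS at 30 dpi and INSIG1 at 6 mpi. The count was 0 when the mean of the intact libraries was the reference, 0 without 7 dpi or without 14 dpi, 1 without 30 dpi or without 6 mpi, and 4 without the intact thoracic library. When levels were centred on the median of all genes, LSS lost its call (2 libraries) and MVD gained one (3 libraries), so the count stayed at 2.

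By time, 4, 12, 6 and 3 of the 21 genes were called higher in OPC-like nuclei (15.7%, 6.75%, 10.1% and 14.3% of all genes) and 0, 0, 1 (TM7SF2) and 0 lower (5.9%, 6.67%, 7.32% and 4.23%). Levels of 2, SREBF1 and SCAP, were above the whole intact range in all 4 injured libraries (8.16%) and of none below it (6.77%). The median log2 ratio of the 21 genes to intact lumbar cord was 0.49, 0.93, 0.53 and 0.21 in order of time. It was 0.31 in intact cervical and 0.55 in intact thoracic cord. That of all measured genes lay between 0.004 and 0.14 in these libraries. The 14 dpi library was the highest of the 7, with a summed enzyme level of 729.5 CPM, against 348 to 529.5 in the intact and 411 to 494 in the other injured libraries. HMGCS1 measured 67.8, 86.8 and 35.4 in the intact libraries and 59.9, 149.5, 71.5 and 49.9 in the injured ones. The intact segments themselves differed in this class, where 4 of 21 genes in cervical (5.75% of all genes) and 10 in thoracic cord (6.11%) were called higher than in lumbar cord and none lower (1.49% and 2.59%). The summed oligodendrocyte markers in OPC-like nuclei were 1329, 1132 and 292 CPM in intact cervical, thoracic and lumbar cord. After injury they were 390.3, 277, 1839 and 938 CPM in order of time, highest at 30 dpi. Astrocyte markers were 771 to 850 in the intact libraries and 1362, 734, 705 and 784 in the injured ones. Neuron markers were 484 to 623 in the intact libraries and 251, 299, 439 and 260 in the injured ones. Cluster 33, with DIAPH3 among its leading genes, held 18.6% of the class at 7 dpi and at most 3.17% elsewhere. LSS over all libraries measured 50.2 in cluster 33 and 26.1 in cluster 6. The part of these sums and shares in the differences was not tested.

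In astrocyte-like nuclei 1 of 20 genes, SREBF1, was called higher in at least 3 injured libraries (all genes 5.93%) and none lower (2.33%). SREBF1 measured 32.4, 25.4 and 36.1 CPM in the intact and 99.7, 42.7, 63.2 and 91.0 in the injured libraries, all above the intact range. Microglia markers in these nuclei were 24.2 to 79.0 CPM in the intact and 140, 134, 163 and 78.6 in the injured libraries, and oligodendrocyte markers were 841, 378, 1726 and 1950 after injury, against 346 in intact lumbar cord. The part of both in the SREBF1 levels was not tested. SREBF1 was called at 7 dpi, 30 dpi and 6 mpi, so leaving out any of these 3 gave a count of 0, while leaving out intact thoracic cord gave 2. By time, 5, 2, 2 and 1 genes were called higher (19.3%, 10.8%, 12.9% and 16% of all genes) and 0, 0, 1 and 3 lower (8.38%, 5.83%, 7.42% and 6%). SREBF1 was also the one gene above the whole intact range in all 4 injured libraries (9.79%), and none was below it (6.42%). Astrocyte-like nuclei of intact thoracic cord had 10 of 20 genes called higher than in lumbar cord (13.9%) and none lower (7.68%), and those of cervical cord had 1 higher (5.1%) and none lower (1.13%). HMGCS1 was among them, at 78.8 CPM in thoracic, 29.1 in cervical and 19.3 in lumbar cord. The thoracic astrocyte-like nuclei held 3357 CPM of oligodendrocyte markers against 346 in intact lumbar cord, and the part of this in the result was not tested. The class was also made up differently by library. Cluster 10, led by ITGB4 and SLC14A1 and with GFAP among its leading genes, held 84.2% of it in intact thoracic, 61.2% in cervical and 52.4% in lumbar cord, and 60.2%, 36.2%, 68.4% and 33.6% of the injured class in order of time, and cluster 13, led by SLC1A2, held the rest. The summed enzyme level over all libraries was 482 CPM in cluster 10 and 239.6 in cluster 13, and within cluster 10 it was 564.6 in intact thoracic and 367 in intact lumbar cord. The contrast of clusters 10 and 13 varied by library. It was 335 against 237 in cervical, 564.6 against 255 in thoracic and 367 against 217 in lumbar cord. At 14 dpi it was 383 against 305. Only 98 to 254 astrocyte-like nuclei came from each injured library, and HMGCS1 at 6 mpi rested on 6 UMIs.

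In neuron-like nuclei none of the 21 measured genes was called in at least 3 injured libraries in either direction (all genes 1.42% higher and 1.33% lower), and single libraries gave 0, 0, 2 and 1 higher (5.86%, 2.55%, 2.44% and 8.4% of all genes) and 1, 1, 1 and 2 lower (3.65%, 4.29%, 3.66% and 3.34%). Levels of 3, MVK, SC5D and STARD4, were below the whole intact range in all 4 (11.8%) and of none above it (8.62%). Between intact segments none was called (0.862% and 0.329% of all genes higher and lower in cervical, 1.59% and 1.67% in thoracic cord). The summed enzyme level was 329.7, 319 and 333 CPM in the intact libraries and 311, 370.2, 294 and 292 in the injured ones, with ratios to intact lumbar cord of 0.875 to 1.11. HMGCS1 measured 50.3, 49.4 and 48.0 in the intact and 37.8, 67.5, 42.5 and 38.1 in the injured libraries. ACACA, with its highest level in these nuclei, measured 249.5 to 256 in the intact and 229 to 260.0 in the injured libraries.

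A further 31 genes of sterol and fatty acid handling were listed beside the synthesis genes, of which 29 were found, ACAT2 by its identifier and the others by symbol. In oligodendrocyte-like nuclei 2 of 25 measured were called higher in at least 3 injured libraries, ABCA1 and ABCG1 (5.34% of all genes), and 2 lower (2.73% of all genes), ACAT2 (the acetoacetyl-CoA thiolase that feeds HMGCS1) and NPC2 (a lysosomal cholesterol carrier). In microglia-like nuclei 5 of 27 were called higher (9.87% of all genes) and 5 lower (6.62%). Of the higher ones, ABCG1 and NR1H3 had every intact level under 5 CPM, and the intact levels of CYP46A1 (4.04 to 5.46) averaged under it. These 3 passed the filter on low levels only through injured libraries where they were high, so the filter itself favoured a higher call for them. Neither their calls nor the count of 5 is support for a change. ABCA1 and MYLIP were the higher ones without this limit. The higher ones were ABCA1, ABCG1, NR1H3 (a liver X receptor), MYLIP (an oxysterol-induced ligase that removes lipoprotein receptors) and CYP46A1 (cholesterol 24-hydroxylase). The lower ones were ACAT2, the fatty acid desaturases FADS1 and FADS2, INSIG2, and LRP8 (a lipoprotein and reelin receptor).

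ABCA1 in microglia-like nuclei measured 12.7, 17.6 and 19.2 CPM in the intact libraries and 91.8, 176, 261 and 269 at 7 dpi, 14 dpi, 30 dpi and 6 mpi, up to 14.0 times (11.8 to 16.7) intact lumbar cord. ABCG1 measured 1.54, 1.26 and 1.36 in the intact and 2.37, 7.03, 28.8 and 45.5 in the injured libraries, so it counted as measured only through the later injured libraries. MYLIP measured 39.5, 27.4 and 44.1 in the intact and 47.7, 69.8, 85.8 and 135 in the injured libraries. ABCA1 and MYLIP had every injured level above every intact level in microglia-like nuclei. The same order in ABCG1 is not support for a change, because of the filter. ABCA1 in oligodendrocyte-like nuclei measured 22.7, 18.4 and 23.6 in the intact and 72.3, 63.5, 101 and 103 in the injured libraries, called at all 4 time points. ABCG1 there measured 13.2, 14.4 and 14.4 in the intact and 25.8, 14.4, 25.6 and 33.9 in the injured libraries, so that 14 dpi did not stand apart from the intact cord. NR1H3 in microglia-like nuclei measured 2.10, 2.52 and 1.36 in the intact and 3.65, 1.98, 13.1 and 10.996 in the injured libraries, with 14 dpi inside the intact range and 30 dpi and 6 mpi carrying it over the minimum. The desaturases went the other way in microglia-like nuclei. FADS1 measured 50.4, 60.02 and 53.1 in the intact and 36.2, 22.6, 11.5 and 8.70 in the injured libraries. FADS2 measured 40.2, 37.1 and 31.0 in the intact and 15.7, 10.7, 3.47 and 11.5 in the injured libraries. In the other classes single genes were called in at least 3 injured libraries. They were ABCA1, higher, of 25 measured in neuron-like nuclei (1.42% of all genes), ELOVL5, higher, of 25 in OPC-like nuclei (3.56%), and ACACB, lower, of 23 in astrocyte-like nuclei (2.33%). Each is a single gene, from which nothing is read about the list.

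**Figure D5:**
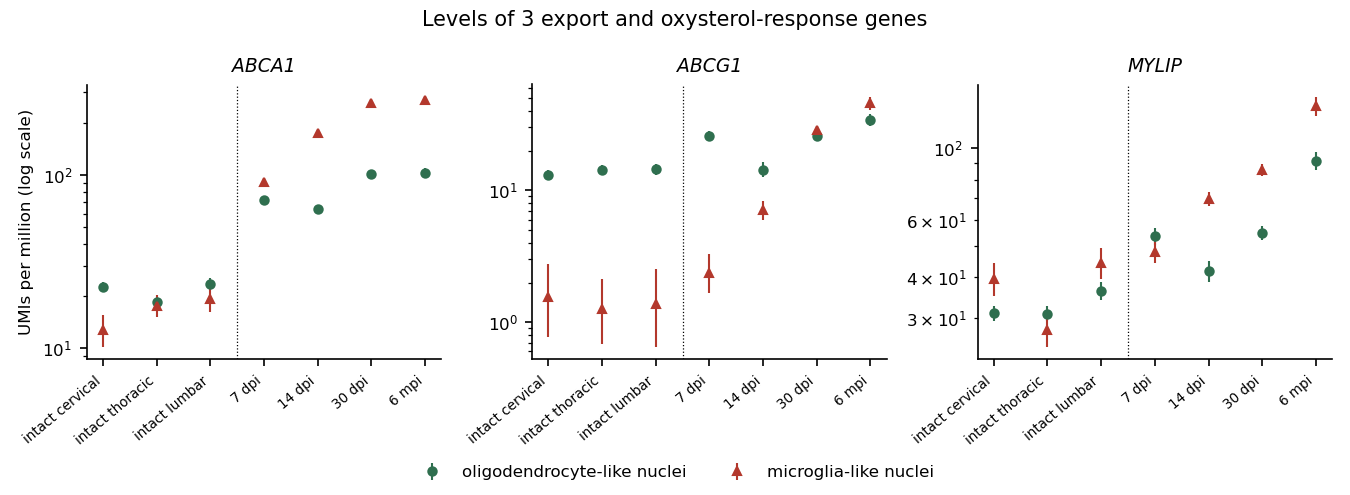
Levels of ABCA1, ABCG1 and MYLIP in CPM (log scale) in oligodendrocyte-like and microglia-like nuclei, by library, with exact Poisson 95% intervals; the dotted line divides intact from injured libraries. ABCA1 in microglia-like nuclei sits at 12.7 to 19.2 in the intact and 91.8 to 269 in the injured libraries. ABCG1 in microglia-like nuclei was under 5 CPM in every intact library.

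Set against these calls, the CCAAT letters stood before all 11 of the genes called lower in oligodendrocyte-like nuclei for which a start site was found, and before 11 of 12 in microglia-like nuclei, with SREBF2 the one without, against 30.9% of all promoters. These promoters are mostly of the same genes, and the 2 counts are not independent. FDPS, which also held them and lies outside these counts, met the conditions for a lower call in 3 injured libraries of each of these classes. Of the genes called higher in a class, SREBF1, LSS and INSIG1 held them and ELOVL6 did not. Of the other listed genes with a start site, PMVK and DHCR7 held them and TM7SF2, SCAP, FASN, ACACA and EBP (not measured here) did not. Over the whole list the letters stood before 17 of 24 genes, and before 13 of its 15 cholesterol enzymes with a start site. The list, not all promoters, is the fitting comparison for the called genes, most of which are these enzymes. A link between the letters and the calls was not tested.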

How the data were processed

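Nuclei of 7 spinal cord samples were sequenced as droplet libraries, 1 per group. The deposited values are UMI counts per gene and barcode that the authors made with Cell Ranger 6.0.0, with reads aligned to Mmul_10; the annotation release and the intron setting are not given in the sources used here. Libraries held 45079131 to 150987900 UMIs. Barcodes with at least 1000 UMIs and 500 genes, at most 10% mitochondrial and 5% hemoglobin UMIs were kept (67084), and the 5% with the highest Scrublet doublet score in each library were removed.

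Nuclei were clustered with scanpy 1.11.5 (2000 variable genes without the listed genes, 30 components, 20 neighbours, Leiden resolution 1, leidenalg 0.10.2) into 38 clusters, of which 3 (410 nuclei) stayed unnamed. The thresholds of the naming rule were loosened after the clusters were seen, and the stricter rule is among the alternatives. No batch correction between libraries was applied. UMI counts were summed per class and library. Levels have exact Poisson and ratios exact conditional binomial 95% intervals (scipy 1.17.1), which cover counting error only. The rule for calls was checked on simulated counts that held counting error only, so the check says nothing of differences between animals or libraries. Values in every library were printed for listed genes called the same way in at least 3 of the 4 injured libraries. Some others were chosen after their values were seen and were printed in full, in part or by range. These included FDPS, the regulators, SCD, DHCR7, TM7SF2, and HMGCS1 and LSS in classes without such a call. Other pathway genes were named only where called the same way in at least 3 of the 4 injured libraries. The genes, lists and the regions shown were chosen with earlier results of these data known. Alternatives changed the reference, doublets, variable genes, resolution, weighting, scaling, filters, fold, naming rule and the libraries used. Promoters were read from the RefSeq annotation and genome of Mmul_10.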

Additional observations from a re-analysis of the deposited data

Results flagged for a closer look

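For 8 genes, all 4 injured libraries lay above intact lumbar cord in one class of nuclei and all 4 below it in another. The values are differences between classes of the mean log2 ratio over the 4 injured libraries, and the differences were not tested, since each group is 1 library. Between OPC-like and oligodendrocyte-like nuclei the difference was 2.90 for HMGCS1, 2.31 for MVD, 1.79 for IDI1, 1.85 for FDFT1, 1.55 for SQLE and 2.04 for LSS. Between OPC-like and microglia-like nuclei it was 2.90 for HMGCS1, 1.93 for MVD, 2.18 for IDI1, 2.24 for FDFT1, 3.07 for SQLE and 3.38 for INSIG1. Between astrocyte-like and oligodendrocyte-like nuclei it was 1.90 for MVD and 1.56 for SQLE. Between astrocyte-like and microglia-like nuclei it was 1.52 for MVD, 3.08 for SQLE and 3.12 for INSIG1. ELOVL6 was the one gene with microglia-like nuclei on the higher side, with a difference of 1.64 from neuron-like nuclei. These values share intact lumbar cord as reference, which in OPC-like nuclei was the lowest of the intact segments for HMGCS1, MVD, IDI1, FDFT1, SQLE, LSS and INSIG1. In astrocyte-like nuclei MVD, SQLE and INSIG1 were called higher in intact thoracic than in intact lumbar cord. Several of the higher levels were not calls. No injured library was called higher for MVD or INSIG1 in astrocyte-like nuclei, or for IDI1 in OPC-like nuclei. SQLE in astrocyte-like nuclei was called only at 7 dpi, and HMGCS1 in OPC-like nuclei only at 14 dpi.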

How the results depend on the processing

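No count turned direction under any alternative that was run. With a fold of at least 2, 4 genes were called lower in oligodendrocyte-like, 1 higher in OPC-like and 0 higher in astrocyte-like nuclei. In microglia-like nuclei MVD, NSDHL and SCD no longer met the rule in 3 libraries. Over all classes 13 gene and class pairs were weaker at this fold and 19 stayed the same. With the mean of the intact libraries as reference, 0 were called higher in OPC-like and 1 lower in neuron-like nuclei. With a mean level of at least 20 CPM, 8 were called lower in oligodendrocyte-like and 9 in microglia-like nuclei, since 8 gene and class pairs fell below the minimum. The stricter rule for naming clusters, added after seeing the data, gave 12 lower in microglia-like nuclei, and 12 in oligodendrocyte-like nuclei. It also left cluster 14 (oligodendrocyte-like) and cluster 31 (endothelial-like) without a name, and of the microglia-like clusters 5, 11 and 15, which held 84.8% of the class at 7 dpi (cluster 5), 55.5% at 30 dpi (cluster 11) and 51.3% and 39.7% at 6 mpi (clusters 15 and 5), so the microglia-like count rests on the remaining nuclei. Weighting each nucleus equally gave 1 called lower in OPC-like nuclei. Leaving out 1 library at a time, chosen after seeing the data and asking a call of every injured library when only 3 were left, gave 6 to 12 called lower and 1 to 1 higher in oligodendrocyte-like, 9 to 13 lower and 1 to 1 higher in microglia-like, 0 to 4 higher in OPC-like and 0 to 2 higher in astrocyte-like nuclei. Each of the 4 injured libraries moved the lower counts. Without them, in order of time, these were 7, 8, 6 and 6 in oligodendrocyte-like and 11, 9, 9 and 11 in microglia-like nuclei. For OPC-like nuclei the 4 injured libraries and intact thoracic cord moved the higher count (0, 0, 1, 1 and 4 without them). For astrocyte-like nuclei 7 dpi, 30 dpi, 6 mpi and intact thoracic cord moved it (0, 0, 0 and 2). The cause of the other changes was not tested; a stricter fold and fewer libraries call fewer genes by construction.

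The median log2 ratio of all measured genes shifted by up to 0.20 (microglia-like nuclei at 6 mpi), and centring on it left the size of each count called in at least 3 libraries as it was, because in OPC-like nuclei LSS lost its call and MVD gained one. No paired analysis was possible because each group is 1 library. With 98 to 254 injured astrocyte-like and 225 to 371 injured OPC-like nuclei per library, intervals in these classes were wide.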

Other observations

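Smaller classes with at least 50 nuclei in a library were outside the comparisons. In ependymal-like nuclei, the ciliated lining of the central canal, the 14 cholesterol enzymes summed to 413 CPM (362 to 469) in intact cervical, 176 (147 to 209.6) in intact thoracic and 217 (194 to 242) in intact lumbar cord, from 67, 109 and 318 nuclei. T cell-like nuclei reached this number in intact thoracic cord (124 nuclei, 408 CPM) and at 7, 14 and 30 dpi (264, 321 and 273 CPM, from 54, 99 and 84 nuclei). Intact lumbar cord did not hold enough T cell-like nuclei for a ratio.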
